A study of Mus musculus with 14 samples.

Results

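FoxM1 knockdown was compared with a control hairpin in quiescent C2C12 cells, a line of mouse myoblasts that can withdraw from the cell cycle and fuse into muscle fibres. The knockdown cells carried a short hairpin RNA against Foxm1 (shFoxM1) and the control cells a control hairpin (shControl). Cells of both kinds had been lifted off the dish and held in suspension in semi-solid medium with methylcellulose and serum, the state that the labels call quiescent. The comparison uses 7 of the 14 RNA-seq libraries of the series, 4 from quiescent shFoxM1 cells and 3 from quiescent shControl cells, chosen by their labelled state. The other 7 libraries, 4 shFoxM1 and 3 shControl, came from cells labelled activated and serve only to ask whether a difference was particular to quiescent cells. The hairpin sequences were not used here, C2C12 is an immortal line, and nothing in the labels says whether the libraries of a group came from separate cultures. The p-values therefore measure how far these libraries varied, and that spread may be technical. Levels are FPKM (fragments per kilobase of transcript, scaled to the fragments mapped), and differences are shFoxM1 minus shControl on the log2(FPKM + 1) scale, which understates changes of genes near 0.

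FoxM1 is a forkhead transcription factor of dividing cells. It acts late in the cell cycle with the MuvB complex, which binds a promoter element called the CHR (cell cycle genes homology region), and its known targets encode cyclin B, mitotic kinases and parts of the spindle. Foxm1 and its targets are low in resting cells, where pocket proteins hold the same promoters in check.

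The CHR letters mark the promoters of several genes compared here, so 3 of them are shown, from RefSeq on GRCm38.p6 and running from 250 bases before the annotated start to 50 bases after it, with TTTGAA in capitals. The windows are chr10:69352863-69353162 on the minus strand for Cdk1, the kinase that starts mitosis, chr7:122159185-122159484 on the plus strand for the mitotic kinase Plk1, and chr2:172370521-172370820 on the minus strand for the mitotic kinase Aurka.
Cdk1: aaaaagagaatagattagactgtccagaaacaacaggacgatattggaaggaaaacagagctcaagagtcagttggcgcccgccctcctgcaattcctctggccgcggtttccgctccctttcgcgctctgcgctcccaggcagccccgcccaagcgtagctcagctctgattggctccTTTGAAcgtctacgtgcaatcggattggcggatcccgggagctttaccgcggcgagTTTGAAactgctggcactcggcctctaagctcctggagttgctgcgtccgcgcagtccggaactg
Plk1: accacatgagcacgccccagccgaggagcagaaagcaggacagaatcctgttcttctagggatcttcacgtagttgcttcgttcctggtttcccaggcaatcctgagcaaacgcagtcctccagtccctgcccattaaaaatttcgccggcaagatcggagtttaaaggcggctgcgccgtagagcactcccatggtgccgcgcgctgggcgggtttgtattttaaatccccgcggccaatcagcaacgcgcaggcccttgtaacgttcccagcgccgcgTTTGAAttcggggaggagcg
Aurka: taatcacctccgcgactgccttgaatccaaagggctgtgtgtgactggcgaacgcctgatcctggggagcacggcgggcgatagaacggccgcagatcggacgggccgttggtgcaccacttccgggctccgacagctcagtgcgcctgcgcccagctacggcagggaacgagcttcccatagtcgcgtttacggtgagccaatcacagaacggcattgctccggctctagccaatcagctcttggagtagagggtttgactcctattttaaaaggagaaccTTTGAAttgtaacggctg
TTTGAA was searched on both strands, also as its reverse complement TTCAAA. It begins at -71 and -15 from the start of Cdk1, at 31 in Plk1 and at 33 in Aurka, and it was not found in the window of Ccnb1. Of the 37 genes in a list of mitotic genes known as FoxM1 targets, 31 had a window and 22 of these (71.0%) held TTTGAA, against 20.2% of 27025 genes with a window. CCAAT, the letters bound by the factor NF-Y, stood in 83.9% of them and in 41.1% of all genes. These matches describe the windows and are not binding sites.

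Estimated depth was about 28000000 to 37200000 reads in shFoxM1 and 27900000 to 32300000 reads in shControl libraries. At least 1 FPKM was reached by 11403 to 12046 genes in shFoxM1 and 11711 to 11978 in shControl libraries. Principal component 1 took 44.5% of the variance, its gene loadings followed GC content (Spearman rho = 0.684 across genes, which are not independent replicates), and shFoxM1 replicate 4 lay at one end. Genes of the mitochondrial genome took 11.4, 12.7, 16.5 and 5.51% of protein-coding FPKM in shFoxM1 replicates 1 to 4, against 11, 12.4 and 11.8% in shControl replicates 1 to 3. Of the myoblast markers, 7 of 10 reached 1 FPKM in at least 3 libraries, with desmin (Des) highest, while 0 of 9 endothelial markers did. Some markers of each other cell type examined also did. They were 5 of 10 fibroblast, 3 of 9 adipocyte and 3 of 10 macrophage and blood cell markers. Among neural and glial markers 2 of 11 did, and among epithelial markers 2 of 9. Fibroblast markers summed to 168 to 287 FPKM in shFoxM1 and 151 to 185 FPKM in shControl libraries, most of it the surface protein Ly6a. Ly6a was the 1 fibroblast marker with a positive difference, and the other 4 measured were negative, with a median of -0.23 over the list.

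The target of the hairpin was lower on average in shFoxM1 libraries, and the groups overlapped. Foxm1 (GRCm38 chromosome 6, 128362967 to 128376146, plus strand) was at 9.95, 6.61, 8.0 and 15.56 FPKM in shFoxM1 replicates 1 to 4, and at 23.87, 12.76 and 10.01 FPKM in shControl replicates 1 to 3. shFoxM1 replicates 1 to 3 lay below every shControl library, and shFoxM1 replicate 4 lay above shControl replicates 2 and 3. The means were 10.0 ± 3.93 FPKM in shFoxM1 (SD, n = 4) and 15.5 ± 7.34 FPKM in shControl libraries (SD, n = 3). The log2 difference was -0.56 ± 0.33 (SE, 95% interval -1.30 to 0.18), with an exact two-sided permutation p of 0.229 and a limma p of 0.123 (adjusted 1). Leaving out shControl replicate 1 gave -0.22, so much of the difference rested on that library. With 4 libraries against 3 the smallest exact p is 0.0286, so no exact p here can be smaller.

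Across the transcriptome, limma called 0 of 12083 genes (0%) at an adjusted p below 0.05, and the smallest adjusted p was 1. At an unadjusted p below 0.05 it listed 260 genes (2.15%), 202 of them lower (1.67%) and 58 higher (0.48%) in shFoxM1 libraries. All 4 shFoxM1 libraries lay below all 3 shControl libraries in 298 genes (2.47%) and above them in 72 genes (0.596%), 370 genes (3.06%) in all. Shuffled labels would give each of these orders in 1 of 35 placements, a share of 0.0286. Neither share exceeded that, and the 2.15% at an unadjusted p below 0.05 was also a share below 0.05. The split of 298 lower and 72 higher genes depended on scaling. It was 157 lower and 32 higher with equal sums of all genes, 162 lower and 114 higher with equal sums of protein-coding genes, 140 lower and 114 higher with median-of-ratios scaling and 162 lower and 142 higher with quantile normalization. The same limma test gave 1877 calls once libraries were weighted by their fit, a setting in which shFoxM1 replicate 4 took a weight of 0.133 and shControl replicate 2 one of 54.7. No gene below passed the test, so the values are given as they lay. Limma gave each an adjusted p that rounds to 1, and the exact permutation p-values beside them are unadjusted and two-sided. Many genes, the long noncoding ones included, were named because their groups did not overlap. That choice alone puts their exact p at or near its smallest possible value, so it adds no support.

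Most genes of mitosis had small positive differences. Of these 37 mitotic targets, all of them measured, 29 had a positive and 8 a negative log2 difference, with a median of 0.08 against -0.03 for all genes tested. None of them lay apart between the groups in either direction. Ccnb1, the cyclin that activates Cdk1, was at 24.85, 22.71, 15.44 and 29.05 FPKM in shFoxM1 replicates 1 to 4 and at 32.98, 20.04 and 14.05 FPKM in shControl replicates 1 to 3. Its log2 difference was 0.09 (95% interval -0.57 to 0.75; exact permutation p = 0.771). Cdk1 was at 99.26, 78.42, 62.49 and 138.98 FPKM in shFoxM1 and at 111.47, 82.03 and 73.68 FPKM in shControl libraries. The highest Cdk1 value thus stood in shFoxM1 replicate 4 and the lowest in shFoxM1 replicate 3. Plk1 had 22.50, 18.44, 12.53 and 38.12 FPKM in shFoxM1 and 29.52, 16.30 and 13.10 FPKM in shControl libraries, a log2 difference of 0.18 (95% interval -0.65 to 1.02). Aurka had 14.97, 13.24, 9.83 and 24.56 FPKM in shFoxM1 and 21.19, 12.78 and 11.37 FPKM in shControl libraries, a log2 difference of 0.02 (95% interval -0.66 to 0.71). In Ccnb1, Cdk1, Plk1 and Aurka alike shControl replicate 1 was the highest of its group and shFoxM1 replicate 3 the lowest of its own. Mki67, which coats mitotic chromosomes and marks dividing cells, was at 34.62, 22.79, 14.27 and 12.48 FPKM in shFoxM1 and at 37.90, 13.53 and 8.67 FPKM in shControl libraries. Within each group Mki67 spanned more than the difference between the means, 21 ± 10.1 FPKM in shFoxM1 (SD, n = 4) and 20.0 ± 15.7 FPKM in shControl libraries (SD, n = 3). The direction of these small differences was not stable, since the list's median was -0.18 without shControl replicate 3 and 0.41 without shControl replicate 1.

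**Figure D1:**
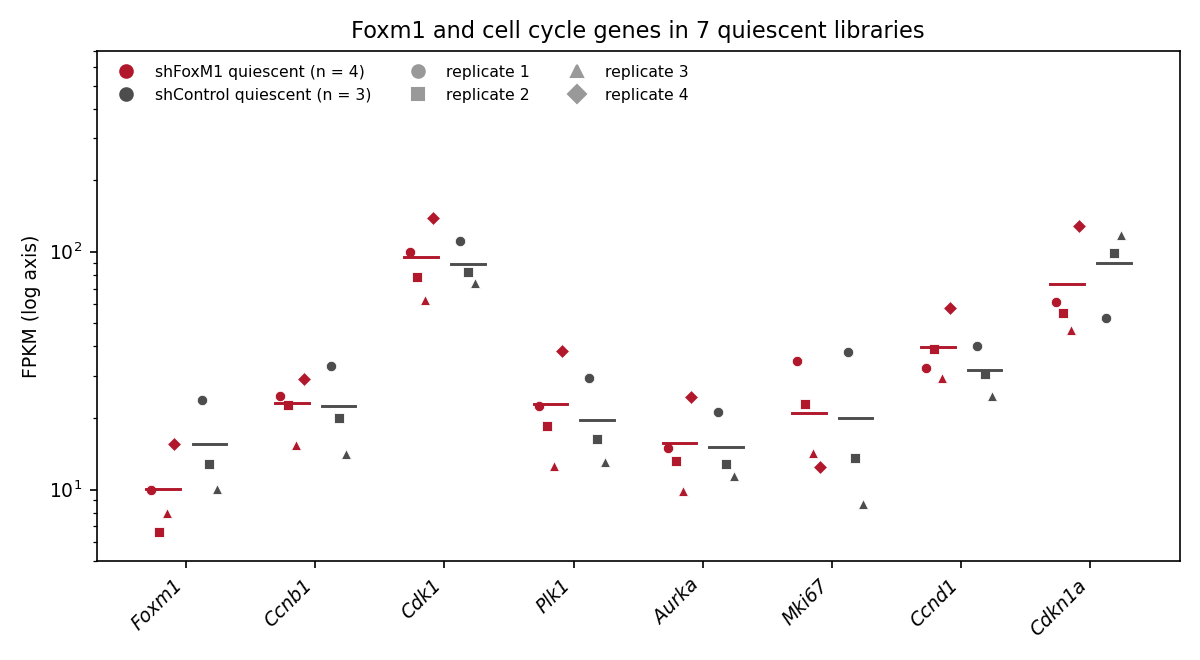
FPKM on a log axis of Foxm1 and 7 cell cycle genes in each of the 4 shFoxM1 (red, left) and 3 shControl (grey, right) quiescent libraries, with a marker per replicate and a line at the group mean. The groups overlap in every gene, Foxm1 included, where shFoxM1 replicate 4 at 15.56 FPKM lies above 2 shControl libraries.

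Genes of DNA replication and repair had the same lean. Of 42 measured replication genes 34 had a positive difference, with a median of 0.12, and 0 lay apart between the groups. Rrm1, the large subunit of ribonucleotide reductase, was at 49.92, 41.58, 34.01 and 36.40 FPKM in shFoxM1 and at 44.86, 29.17 and 20.36 FPKM in shControl libraries (log2 difference 0.41, exact permutation p = 0.257). Mcm10, which helps load the replication fork, was at 5.69, 4.91, 2.57 and 4.4 FPKM in shFoxM1 and at 5.17, 2.76 and 1.91 FPKM in shControl libraries (log2 difference 0.37, exact permutation p = 0.314). For both genes shControl replicate 1 sat among the shFoxM1 libraries and the other shControl libraries near or below the lowest of them. In homologous recombination and Fanconi repair 19 of 22 measured genes had a positive difference, with a median of 0.08. Relative to the 7 libraries, the replication list averaged 0.24, 0.08, -0.45 and 0.34 in shFoxM1 libraries. It averaged 0.32, -0.15 and -0.38 in shControl libraries, so the groups overlapped. The repair list overlapped too, at 0.39, 0.15, -0.26 and -0.14 in shFoxM1 and 0.40, -0.10 and -0.44 in shControl libraries. The mitotic list, with the same shControl order, had a median of -0.18 without shControl replicate 3. No such median is given here for the replication and repair lists.

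The regulators that hold cells out of the cycle showed no separation either. Cdkn1a, the inhibitor of cyclin-dependent kinases that p53 induces, was at 61.21, 55.21, 46.71 and 128.68 FPKM in shFoxM1 and at 52.77, 98.63 and 117.99 FPKM in shControl libraries. shFoxM1 replicate 4 held the highest of these 7 values and shFoxM1 replicate 3 the lowest. Cdkn1b, the inhibitor typical of resting cells, averaged 39.7 ± 8.17 FPKM in shFoxM1 (SD, n = 4) and 40.1 ± 2.75 FPKM in shControl libraries (SD, n = 3), with a log2 difference of -0.03 (95% interval -0.42 to 0.36) whose sign turned with other scalings. The pocket proteins Rb1 and Rbl2, which repress cell cycle promoters, had log2 differences of -0.07 (95% interval -0.71 to 0.56) and 0.17 (-0.28 to 0.63). Ccnd1, the G1 cyclin, was at 32.41, 38.87, 29.41 and 58.12 FPKM in shFoxM1 and at 40.00, 30.75 and 24.70 FPKM in shControl libraries, a log2 difference of 0.29 (exact permutation p = 0.429).

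The beta-catenin pathway and the anaphase-promoting complex stood close to the middle of all genes. Apc, the scaffold of the complex that degrades beta-catenin, was at 28.47, 28.39, 22.72 and 7.96 FPKM in shFoxM1 and at 22.11, 19.65 and 15.29 FPKM in shControl libraries. shFoxM1 replicate 4 had the lowest Apc value and shFoxM1 replicates 1 to 3 the highest. Beta-catenin (Ctnnb1) averaged 150 ± 18.8 FPKM in shFoxM1 (SD, n = 4) and 144 ± 18.8 FPKM in shControl libraries (SD, n = 3), and its feedback target Axin2 had a log2 difference of 0.08 (95% interval -0.38 to 0.55). Fzr1 (Cdh1), the activator of the anaphase-promoting complex in G1 and resting cells, averaged 22.1 ± 2.67 FPKM in shFoxM1 and 22.1 ± 2.03 FPKM in shControl libraries. Medians were -0.01 for 17 genes of beta-catenin degradation and -0.01 for 19 genes of the anaphase-promoting complex, and both were above 0 under each of the 4 other scalings.

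Genes of the extracellular matrix were the group with the most members apart between the hairpins. Of 35 measured matrix genes 32 had a negative difference, with a median of -0.33, and in 10 of them (28.6%, against 2.47% of all genes) every shFoxM1 library lay below every shControl library. The 10 are the collagens Col1a2, Col5a1, Col5a3, Col16a1 and Col18a1, the collagen cross-linking enzymes Loxl1 and Loxl2, and the matrix proteins Thbs2, Nid1 and Fbln2. These 10 genes were read in the same 7 libraries and are not independent of each other. This list and the lists below were chosen with earlier results of these data known. The shares of all genes set beside their counts are therefore no test. The count was 17 without shControl replicate 1, where the share over all genes was 8.14%, 7 with median-of-ratios scaling (1.16%) or quantile normalization (1.34%), and 6 once a trend on GC content and length was removed, where it was 2.78%.

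Thbs2, a thrombospondin that binds matrix and cell surface, was at 30.27, 31.84, 40.30 and 31.52 FPKM in shFoxM1 and at 43.20, 52.23 and 57.50 FPKM in shControl libraries. The log2 difference was -0.59 ± 0.16 (SE, exact permutation p = 0.0571). Col5a3, a minor fibrillar collagen chain, was at 10.25, 7.26, 6.94 and 9.28 FPKM in shFoxM1 and at 14.41, 11.70 and 14.93 FPKM in shControl libraries (log2 difference -0.65 ± 0.17, exact permutation p = 0.0286). The nearest libraries of the groups were shFoxM1 replicate 3 and shControl replicate 1 in Thbs2, and shFoxM1 replicate 1 and shControl replicate 2 in Col5a3. Col16a1, which links collagen fibrils, was at 9.08, 10.25, 8.22 and 8.59 FPKM in shFoxM1 and at 11.86, 13.56 and 14 FPKM in shControl libraries (log2 difference -0.50, exact permutation p = 0.0286). Col18a1, the basement membrane collagen from which endostatin is cut, was at 8.52, 9.97, 15.08 and 17.65 FPKM in shFoxM1 and at 19.73, 19.58 and 25.41 FPKM in shControl libraries (log2 difference -0.75, exact permutation p = 0.0571). Col1a2, a chain of type I collagen, was at 477.82, 467.58, 330.48 and 419.20 FPKM in shFoxM1 and at 545.95, 606.02 and 710.84 FPKM in shControl libraries (log2 difference -0.56, exact permutation p = 0.0286). Its partner chain Col1a1 overlapped, with 39.33, 27.07, 50.40 and 73.16 FPKM in shFoxM1 and 101.73, 65.29 and 104.64 FPKM in shControl libraries, although its log2 difference was -0.98. Col3a1 and Postn also overlapped, with log2 differences of -0.46 (95% interval -0.96 to 0.03) and -1.11 (-2.30 to 0.07). Periostin spanned 13.67 to 75.79 FPKM within the shFoxM1 libraries alone.

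**Figure D2:**
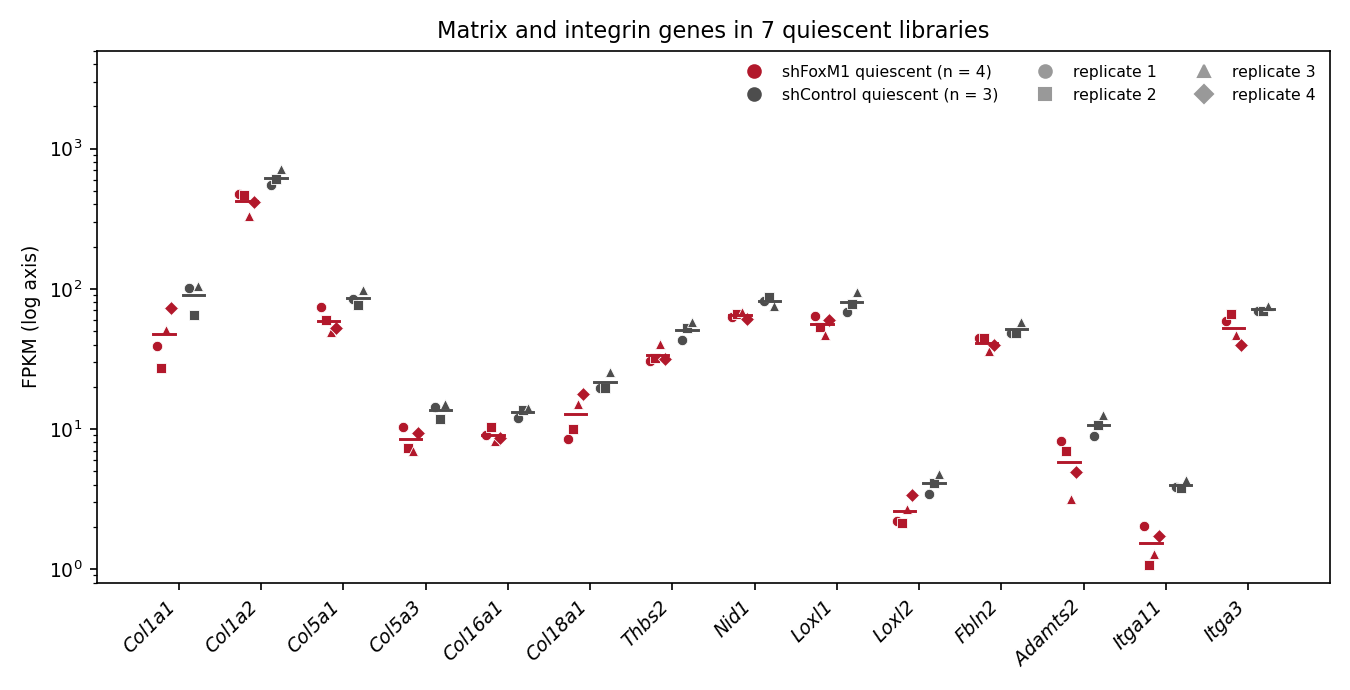
FPKM on a log axis of 12 matrix genes, the matrix protease Adamts2 among them, and the integrins Itga11 and Itga3 in each shFoxM1 (red, left) and shControl (grey, right) quiescent library, with a marker per replicate and a line at the group mean. Every gene drawn is apart between the groups except Col1a1, where shFoxM1 replicate 4 at 73.16 FPKM lies above shControl replicate 2 at 65.29 FPKM.

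Integrins, which bind matrix proteins at the cell surface, and matrix proteases lay the same way. Itga11, the alpha chain of a collagen receptor, had the smallest limma p of all genes tested (0.000442). It was at 2.04, 1.06, 1.28 and 1.72 FPKM in shFoxM1 and at 3.85, 3.78 and 4.31 FPKM in shControl libraries, a log2 difference of -0.99 ± 0.18 (SE, 95% interval -1.41 to -0.58). The laminin receptor chain Itga3 was also apart, at 59.16, 65.96, 46.46 and 39.86 FPKM in shFoxM1 and at 69.82, 69.03 and 74.78 FPKM in shControl libraries (log2 difference -0.45). Of 16 measured integrin and adhesion genes 13 had a negative difference, with a median of -0.22, and 2 (12.5%, against 2.47% of all genes) were lower without overlap. That count was 5 without shFoxM1 replicate 1 (4.27% of all genes) or shControl replicate 1 (8.14%), and 3 without shFoxM1 replicate 2 (3.24%) or shControl replicate 2 (3.68%). It was 1 with equal sums of all genes (1.3% of all genes), equal protein-coding sums (1.34%) or quantile normalization (1.34%). It was also 1 with the GC and length trend removed (2.78%) or a filter of 5 FPKM (2.55%). Among 17 proteases and inhibitors the median was -0.30, with 2 lower (11.8%, against 2.47% of all genes) and 1 higher (against 0.596%) without overlap. The lower ones numbered 5 without shFoxM1 replicate 1 (4.27% of all genes) and 7 without shControl replicate 1 (8.14%). They numbered 3 with equal sums of all genes (1.3% of all genes), without shFoxM1 replicate 4 (8.62%) or without shControl replicate 3 (5.34%). With a filter of 5 FPKM they numbered 1 (2.55%). The second lower one, Adamts12, and the higher one, the protease inhibitor Timp2, were named after their values were seen. Adamts2, which trims procollagen so that fibrils can form, was at 8.23, 6.92, 3.15 and 4.94 FPKM in shFoxM1 and at 8.95, 10.71 and 12.52 FPKM in shControl libraries (log2 difference -0.84, exact permutation p = 0.0571). In bulk RNA, fewer cells of a kind and less RNA per cell cannot be told apart. Mean log2 levels of the 5 measured fibroblast markers, relative to the 7 libraries, were -0.17, 0.13, -0.01 and -0.15 in shFoxM1 and -0.15, 0.07 and 0.28 in shControl libraries, so they overlapped while the matrix list did not. Their median difference was -0.23, with 4 of 5 negative, beside -0.33 for the matrix list, and their part in the matrix values was not tested.

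Muscle genes had the lowest median of any list, and 1 shControl library stood with the shFoxM1 libraries. Of 37 measured genes of the sarcomere and of muscle differentiation 36 had a negative difference, with a median of -1.13, yet 0 were apart between the groups. Myog, the transcription factor that starts differentiation, was at 25.30, 23.82, 3.95 and 37.31 FPKM in shFoxM1 and at 16.74, 64.54 and 83.63 FPKM in shControl libraries. Its log2 difference of -1.30 had a 95% interval of -2.97 to 0.37 and an exact permutation p of 0.229. Myh3, the embryonic myosin heavy chain, was at 12.25, 30.71, 1.95 and 11.76 FPKM in shFoxM1 and at 12.06, 104.22 and 98.13 FPKM in shControl libraries (log2 difference -2.20, exact permutation p = 0.171). shControl replicate 1 thus had the Myh3 level of the shFoxM1 libraries, and shControl replicates 2 and 3 were higher than any other. The same held for cardiac actin (Actc1), at 21.84, 23.09, 0.57 and 26.79 FPKM in shFoxM1 and at 11.31, 88.43 and 94.59 FPKM in shControl libraries. Muscle creatine kinase (Ckm) was at 3.23, 5.45, 1.10 and 15.13 FPKM in shFoxM1 and at 4.09, 33.40 and 42.81 FPKM in shControl libraries, and nebulin (Neb), the ruler of the thin filament, at 2.96, 6.49, 1.85 and 2.04 FPKM in shFoxM1 and at 3.12, 18.32 and 18.22 FPKM in shControl libraries. Mymx and Mymk, the membrane proteins that fuse myoblasts, had log2 differences of -1.15 (95% interval -2.20 to -0.11) and -1.09 (-2.66 to 0.48). Without shControl replicate 1, 31 of the 37 genes were lower without overlap, against 8.14% of all genes, and limma still called 0 genes.

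Averaged over the list, muscle genes lay -0.46, -0.18, -1.42 and 0.35 from the mean of the 7 libraries in shFoxM1 replicates 1 to 4 and -0.59, 1.13 and 1.18 in shControl replicates 1 to 3. The G2 and M phase targets had nearly the mirror order among the shControl libraries, at 0.61, -0.18 and -0.59, and 0.33, 0.02, -0.50 and 0.30 in the shFoxM1 libraries. shControl replicate 1 was therefore the lowest of its group in muscle genes and the highest in mitotic genes, whereas shFoxM1 replicate 3 was the lowest of its group in both. The matrix list had the muscle order among the shControl libraries and was also lowest in shFoxM1 replicate 3, but its groups did not overlap, with -0.09, -0.15, -0.24 and -0.17 in shFoxM1 and 0.12, 0.21 and 0.33 in shControl libraries. The determination factors differed less than Myog. Myod1 was at 34.69, 27.38, 18.63 and 34.13 FPKM in shFoxM1 and at 21.39, 39.71 and 38.99 FPKM in shControl libraries (log2 difference -0.20), and Myf5 averaged 13.8 ± 3.14 FPKM in shFoxM1 (SD, n = 4) and 10.4 ± 2.88 FPKM in shControl libraries (SD, n = 3; log2 difference 0.39, exact permutation p = 0.2). The 15 measured myogenic regulators had a median of -0.07, with 7 positive and 8 negative.

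**Figure D3:**
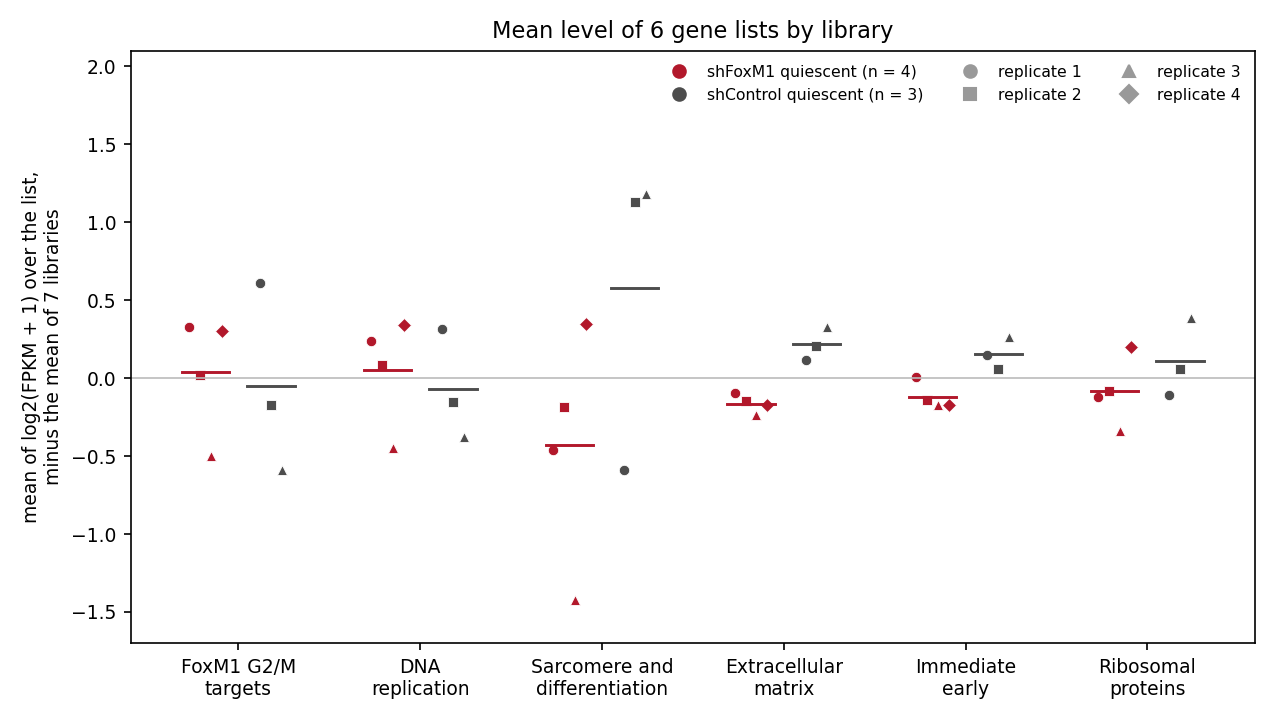
Mean log2(FPKM + 1) of 6 gene lists in each shFoxM1 (red, left) and shControl (grey, right) quiescent library, relative to the mean of the 7 libraries, with a line at the group mean. The matrix list is apart between the groups (-0.24 to -0.09 in shFoxM1, 0.12 to 0.33 in shControl), whereas in the sarcomere list shControl replicate 1 at -0.59 sits among the shFoxM1 libraries.

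Immediate early genes, transcription factors and phosphatases that cells induce within minutes of a stimulus, also leaned low. Of 27 measured, 23 had a negative difference, with a median of -0.27, and 5 (18.5%, against 2.47% of all genes) were lower without overlap. That count became 2 once the GC and length trend was removed (2.78% of all genes) and 3 with equal protein-coding sums or quantile normalization (1.34% in both). It was 8 without shFoxM1 replicate 1 (4.27%) or shControl replicate 1 (8.14%), and 9 without shFoxM1 replicate 3 (4.05%) or shControl replicate 2 (3.68%). Egr1, a zinc finger factor of growth signals, was at 30.62, 23.76, 12.84 and 20.64 FPKM in shFoxM1 and at 32.89, 32.16 and 40.15 FPKM in shControl libraries (log2 difference -0.71, exact permutation p = 0.0571). Its relative Egr3 was at 2.01, 1.91, 0.93 and 1.37 FPKM in shFoxM1 and at 3.36, 2.88 and 3.23 FPKM in shControl libraries (log2 difference -0.72, exact permutation p = 0.0286). Both were lowest in shFoxM1 replicate 3. Dusp2, a phosphatase that switches off MAP kinases, was at 3.82, 5.78, 4.85 and 4.46 FPKM in shFoxM1 and at 6.81, 7.62 and 11.05 FPKM in shControl libraries (log2 difference -0.71, exact permutation p = 0.0286). The other 2 were the AP-1 factor Fosl2 and Ier2. Fos overlapped, at 1.51, 1.03, 2.16 and 0.88 FPKM in shFoxM1 and at 2.30, 1.85 and 4.44 FPKM in shControl libraries.

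Several secreted and signalling genes were among the protein-coding genes with the lowest log2 differences whose libraries did not overlap. Igf1, the growth factor of muscle, was at 3.65, 2.32, 2.61 and 3.57 FPKM in shFoxM1 and at 4.04, 7.33 and 8.31 FPKM in shControl libraries (log2 difference -0.87, exact permutation p = 0.0286). Igf2 overlapped, at 16.63, 15.86, 10.72 and 26.97 FPKM in shFoxM1 and at 15.65, 45.31 and 41.00 FPKM in shControl libraries, again with shControl replicate 1 low. The Wnt ligand Wnt10a was at 11.98, 12.39, 6.0 and 9.50 FPKM in shFoxM1 and at 15.57, 16.84 and 23.54 FPKM in shControl libraries (log2 difference -0.86). Adgra2 (Gpr124), a co-receptor for Wnt7 ligands, had a log2 difference of -0.87, and the interferon-inducible Ifi27l2a one of -1.21. Stmn2, a protein that destabilises microtubules, was at 6.46, 6.70, 3.81 and 6.68 FPKM in shFoxM1 and at 9.12, 13.59 and 13.62 FPKM in shControl libraries (log2 difference -0.93, exact permutation p = 0.0286). Pycr1, an enzyme of proline synthesis, was at 4.05, 3.97, 2.70 and 5.69 FPKM in shFoxM1 and at 6.23, 7.07 and 8.52 FPKM in shControl libraries. The chemokine Ccl9 was at 21.95, 26.69, 20.37 and 20.11 FPKM in shFoxM1 and at 35.09, 35.05 and 35.83 FPKM in shControl libraries (log2 difference -0.65, exact permutation p = 0.0286). In the Notch pathway the ligand Jag2 was at 0.73, 0.61, 0.36 and 0.91 FPKM in shFoxM1 and at 1.1, 1.25 and 1.42 FPKM in shControl libraries. Jag2 passed the filter of 1 FPKM in at least 3 libraries only through the shControl libraries, so the filter favoured its separation. The receptor Notch1 was at 5.32, 4.41, 4.88 and 6.96 FPKM in shFoxM1 and at 6.84, 8.64 and 10.62 FPKM in shControl libraries. For Notch1 shFoxM1 replicate 4 lay just above shControl replicate 1.

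Genes higher in every shFoxM1 library included a complement regulator, mitochondrial proteins and transporters. Cd55, a surface protein that limits complement, had the highest log2 difference among protein-coding genes without overlap, 1.05 ± 0.27 (SE, exact permutation p = 0.0571). It was at 7.39, 7.11, 12.20 and 4.26 FPKM in shFoxM1 and at 2.91, 3.00 and 3.13 FPKM in shControl libraries. The spread was thus wide among shFoxM1 and narrow among shControl libraries. Coa7, an assembly factor of the respiratory chain, was at 8.25, 7.67, 10.70 and 16.82 FPKM in shFoxM1 and at 7.40, 6.29 and 4.62 FPKM in shControl libraries (log2 difference 0.70). Gpd2, the mitochondrial glycerol phosphate dehydrogenase, was at 17.72, 17.45, 13.60 and 14 FPKM in shFoxM1 and at 12.44, 10.66 and 11.34 FPKM in shControl libraries (log2 difference 0.41). Arpp19, an inhibitor of the phosphatase PP2A at entry into mitosis, was at 30.61, 30.68, 33.77 and 41.73 FPKM in shFoxM1 and at 28.77, 28.52 and 20.32 FPKM in shControl libraries (log2 difference 0.40). Log2 differences of 0.46 to 0.50 were found for Sytl2, a Rab effector of vesicle transport, the aldo-keto reductase Akr1c13, the potassium channel Kcnj15, the calcium exchanger Slc24a3 and the membrane protein Tmem158. Ly6a, a marker of stem cells and fibroblasts, overlapped, at 157.70, 137.71, 265.52 and 253.73 FPKM in shFoxM1 and at 158.85, 121.70 and 113.29 FPKM in shControl libraries.

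The long noncoding genes with the lowest log2 differences were Gm42418 and Gm26917, which are neighbours on GRCm38 chromosome 17 (39846958 to 39848788 and 39843013 to 39846341) at a copy of the ribosomal RNA precursor, so that residual ribosomal RNA can count towards both. Gm42418 was at 4.96, 6.14, 4.20 and 4.19 FPKM in shFoxM1 and at 21.59, 13.44 and 105.80 FPKM in shControl libraries (log2 difference -2.49, exact permutation p = 0.0286). Gm26917 was at 7.27, 11.29, 7.56 and 7.63 FPKM in shFoxM1 and at 38.75, 18.76 and 164.35 FPKM in shControl libraries (log2 difference -2.44, exact permutation p = 0.0286). In both genes shControl replicate 3 stood far above shControl replicates 1 and 2, and the shFoxM1 libraries kept within a narrow range. Among the highest were 1700007L15Rik, at 1.24, 1.88, 1.76 and 1.52 FPKM in shFoxM1 and at 0.81, 0.96 and 0.70 FPKM in shControl libraries, and the antisense gene Gm16174, whose reads cannot be told from those of the gene opposite because the use of strand is not given in the sources used here. Both genes passed the filter of 1 FPKM only through shFoxM1 libraries, so the filter favoured their separation.

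In the lists below 0 or 1 member was apart between the groups, although several medians lay away from that of all genes. The 53 ribosomal protein genes had a median of -0.19, with 52 negative (98.1%, against 57.7% of all genes) and 1, Rps4x, lower without overlap (1.89%, against 2.47%). Their mean lay at -0.12, -0.08, -0.34 and 0.20 in shFoxM1 and at -0.11, 0.06 and 0.38 in shControl libraries, so the groups overlapped. Interferon response genes had a median of -0.19 (15 of 17 negative), integrated stress response genes -0.19 (18 of 21 negative) and p53 targets -0.09 (12 of 19 negative), none of them with a member apart. The stress gene Fgf21 ran from 0.54 to 1.80 FPKM in shFoxM1 and from 1.28 to 12.25 FPKM in shControl libraries. Genes of the Nrf2 and glutathione response, which detoxify reactive compounds, had the highest median among lists with at least 7 measured genes, 0.13, with 21 of 23 positive (91.3%, against 42.3% of all genes) and 0 apart. The 7 measured myoblast markers had a median of -0.33, with 5 negative and 0 apart. The 13 genes of the mitochondrial genome had a median of -0.14, and shFoxM1 replicate 4 lay 0.99 below the mean of the 7 libraries. Replication-dependent histones had a median of 0.02 with shFoxM1 replicate 3 at -0.94 and shFoxM1 replicate 4 at 0.86.

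**Figure D4:**
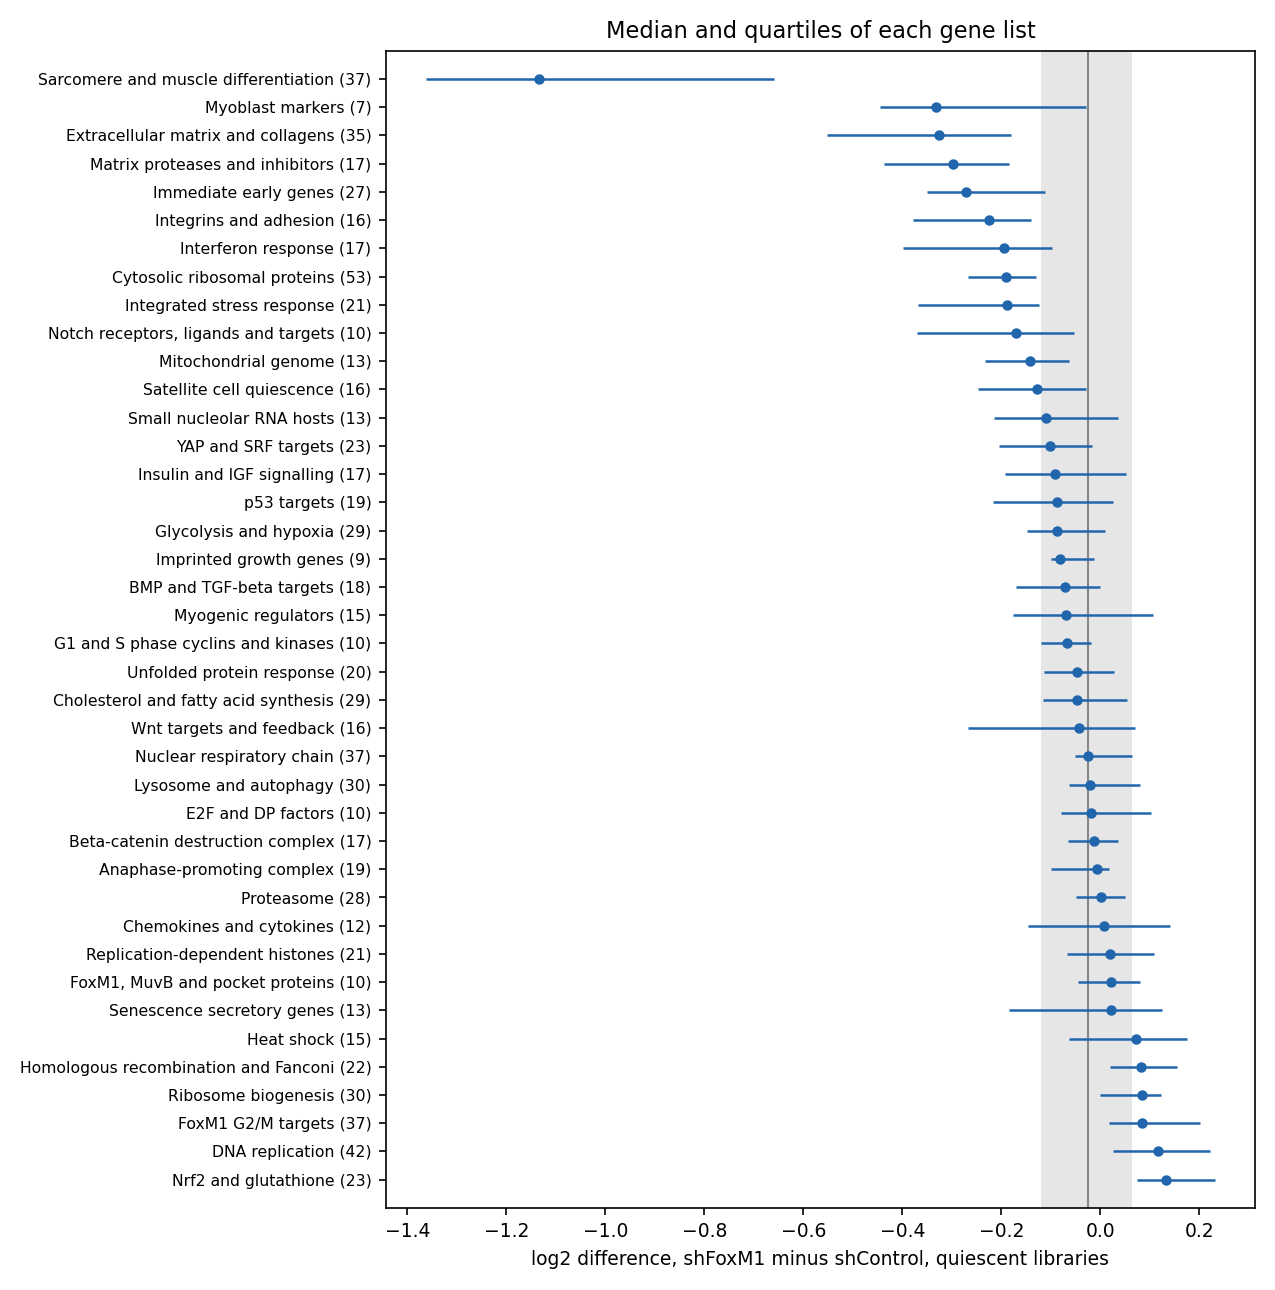
Median (point) and quartiles (line) of the log2 difference, shFoxM1 minus shControl in quiescent libraries, for each list with at least 7 measured genes, with the number measured in brackets and the median and quartiles of all genes tested as a grey line and band. The sarcomere list stands at -1.13 and the matrix list at -0.33, and the FoxM1 targets at 0.08 lie above the median of all genes, -0.03.

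The knockdown difference in quiescent cells was set against the one in activated cells, which shares no library with it. Limma called 0 of 12083 genes (0%) for the difference between the differences, with a smallest adjusted p of 0.993 and 421 genes (3.48%) at an unadjusted p below 0.05. Foxm1 itself averaged 17.0 ± 7.23 FPKM in activated shFoxM1 (SD, n = 4) and 35.8 ± 1.13 FPKM in activated shControl libraries (SD, n = 3), a log2 difference of -1.11, and the quiescent difference minus this one was 0.55 (limma adjusted p = 0.993). Of the 298 genes lower without overlap in quiescent cells, 128 (43%) also had a negative difference in activated cells, against 31.5% of all genes tested. Of the 72 higher ones 50 (69.4%) had a positive one, against 68.4% of all genes tested. In activated cells the median of all genes was 0.11, that of the matrix list 0.08 and that of the sarcomere list -0.21. Itga11 was near 0 in activated cells, at 0.0275 ± 0.0222 FPKM in shFoxM1 and 0.03 ± 0.0265 FPKM in shControl libraries, so a difference could not be read there. Thbs2 was at 15.7 ± 1.95 FPKM in activated shFoxM1 and 14.2 ± 2.21 FPKM in activated shControl libraries, a log2 difference of 0.13, and the quiescent difference minus this one was -0.72 (limma adjusted p = 0.993). Egr3 had 0.35 in activated cells, and its quiescent difference minus this one was -1.07 (limma adjusted p = 0.993). Other genes named above were lower with the hairpin in both states. Activated log2 differences were -1.38 for Ifi27l2a, -1.16 for Ccl9, -0.51 for Adamts2 and -0.42 for Stmn2. Of the 298 genes, 57% had a positive activated difference. Cd55 and Tmem158 lay higher with the hairpin in both states, with activated log2 differences of 0.77 and 0.63. Activated Cd55 was at 6.69 ± 2.47 FPKM in shFoxM1 and 3.58 ± 1.87 FPKM in shControl libraries. In the 14-library model limma called 0 genes for the activated difference (adjusted p = 0.636 for Cd55 and 0.631 for Tmem158).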

How the data were processed

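RNA-seq libraries of quiescent C2C12 cells, 4 shFoxM1 and 3 shControl, were compared, with groups taken from the sample labels. The authors deposited FPKM values per gene, 1 column for each of 14 libraries. The table name gives RSEM and GENCODE, and HTSeq, Cufflinks 2.1.1, Bowtie 0.12.9 and the mm10 build come from the submitters' processing notes. The sources used here do not give which tool made the values, the GENCODE release or the use of strand. Total RNA went into Illumina TruSeq libraries, per the labels' protocols. The series text speaks of triplicates, whereas the labels give 4 shFoxM1 libraries, and all were used. Of 49585 genes, 26967 were at 0 in all 7 libraries, and 49326 identifiers matched GENCODE release M21, the source of types and positions. Depth was estimated from the FPKM steps of low genes with 1 transcript (92.7 to 96.1% of values within 0.25 reads of a step). No counts were used, so no counting interval is given.

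The 12083 genes that reached 1 FPKM in 3 or more of the 7 libraries were tested on log2(FPKM + 1) with limma 3.58.1 in R 4.3.3 (2 group means, empirical Bayes with a trend, two-sided, Benjamini-Hochberg over all genes, called at an adjusted p below 0.05). The 18 main genes were also tested by exact permutation over the 35 placements of the libraries, and the smallest adjusted exact p was 0.996. The difference between quiescent and activated knockdown differences used all 14 libraries. The test was tried on simulated data. "Without overlap" means that every shFoxM1 library lay on one side of every shControl library.

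Members and lists were chosen with earlier results of these data known. Named genes are the main genes, up to 20 called genes (there were 0), the 10 highest and 10 lowest named protein-coding genes without overlap (at least 5 FPKM in the higher group, limma p below 0.05), each list's 3 members of smallest p, and, among long noncoding genes without overlap and with at least 1 FPKM in the higher group, the 4 highest and 4 lowest. The text gives examples of these. Other members of the matrix, muscle, early response and fusion lists, among them Col1a1, Col1a2, Col3a1, Postn, Nid1, Loxl1, Loxl2, Fbln2, Myh3, Actc1, Ckm, Mymk, Mymx, Fos, Fosl2, Ier2, Adamts12, Timp2 and Rps4x, were named after their values were seen. Alternatives were other pseudocounts (0.1, 5) and filters, 4 other scalings, removal of a trend on GC content and length (mgcv 1.9.3), the replicate number as a block, other settings of limma, the 14-library model, and leaving out each library in turn. Promoter windows were RefSeq's.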

Additional observations from a re-analysis of the deposited data

Results flagged for a closer look

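Among the 4 shFoxM1 quiescent libraries, the highest or lowest one stood apart from the others by the Dixon criterion in 6 of 84 genes examined, and chance alone flags about 1 in 20 groups. shFoxM1 replicate 4 was apart in Ctnnb1, beta-catenin, at 121.74 FPKM with the others at 155.8 to 160.77 FPKM. It was also apart in Fzr1, the activator of the anaphase-promoting complex, at 26.08 FPKM with the others at 20.62 to 21.05 FPKM. shFoxM1 replicate 3 was apart in Thbs2 at 40.3 FPKM (others 30.27 to 31.84 FPKM), in Adgra2 at 5.69 FPKM (others 11.64 to 12.26 FPKM) and in Stmn2 at 3.81 FPKM (others 6.46 to 6.7 FPKM). shFoxM1 replicate 2 was apart in Gm26917 at 11.29 FPKM (others 7.27 to 7.63 FPKM). No other gene examined met the criterion.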

How the results depend on the processing

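The count of 0 genes called held under every alternative run except array weights, which gave 1877 calls for the knockdown difference and 2729 for its difference between the states. With array weights the log2 difference of Foxm1 was -0.647 and passed (adjusted p = 0.0245), while its adjusted p was above 0.05 under all other alternatives. That weighting gave a convergence warning. It put a weight of 54.7 on shControl replicate 2 and 0.133 to 2.09 on the other libraries, so it leaned on 1 library. Leaving out 1 library gave 0 calls each time (range 0 to 0) and put Foxm1 between -0.809 and -0.221. Genes at an unadjusted limma p below 0.05 numbered 730 without shFoxM1 replicate 4, 502 without shControl replicate 1, 102 and 97 without shControl replicates 2 and 3, against 260 with all 7 libraries. Filters changed the number of genes tested as well as that count. It was 650 of 22618 genes with no filter and 162 of 9163 genes at 5 FPKM. The 260 were of 12083 genes, as were the 124 with equal sums of all genes.

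Deviations of same-numbered libraries correlated by 0.299, 0.0268 and 0.00472 across genes. Those of differently numbered libraries ran from -0.34 (shFoxM1 replicate 1 with shControl replicate 3) to 0.338 (shFoxM1 replicate 4 with shControl replicate 3). These values do not settle whether the replicate numbers pair the libraries. The replicate block, in which shFoxM1 replicate 4 has no partner and adds nothing, gave 0 calls and 1410 genes at an unadjusted p below 0.05. That count was 730 without shFoxM1 replicate 4 and without the block. It was 881 with the block once the GC and length trend was also taken out. The exact permutation test was not run with the block. The block turned the sign of Ccnb1 (-0.0316), Cdk1 (-0.155), Plk1 (-0.0895), Aurka (-0.206), Cdkn1b (0.0873) and Rb1 (0.152). With the trend removed it gave -0.148 for Ccnb1, -0.167 for Cdk1, -0.156 for Aurka and 0.117 for Fzr1. Cdkn1b was 0.0126, 0.033 and 0.0119 with equal sums of all genes, equal sums of protein-coding genes and quantile normalization. Fzr1 was 0.0397, 0.0594, 0.0191, 0.0122, 0.0921 and 0.0533 with these 2 sums, median-of-ratios scaling, quantile normalization, the trend removed and array weights. Leaving out 1 library spanned 0 for Mki67 (-0.218 to 0.786), Apc (-0.105 to 0.467), Fzr1 (-0.0826 to 0.0622), Ccnb1 (-0.189 to 0.399), Cdk1 (-0.155 to 0.226), Plk1 (-0.0895 to 0.506), Aurka (-0.206 to 0.279), Cdkn1b (-0.149 to 0.0873), Rb1 (-0.301 to 0.152), Ctnnb1 (-0.0525 to 0.152), Axin2 (-0.0778 to 0.305) and Top2a (-0.12 to 0.838). The cause of these shifts was not tested. The matrix list's median stayed between -0.503 and -0.261, and that of the muscle list between -1.71 and -0.64, under all alternatives. Counting error was not computed, since the values are FPKM, and the intervals given cover the spread between libraries.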
